A study of Homo sapiens with 12 samples.

Results

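The genes followed here are the 4 secreted ligands of the GDNF family (GDNF, NRTN, ARTN and PSPN), the co-receptors GFRA1, GFRA2 and GFRA3, the receptor tyrosine kinase RET and the adhesion molecule NCAM1. These 9 genes, of 38434 named genes in the deposited tables, were taken by their symbols, and all 9 were found in both tables. They were put forward with the change between maspin and ctrl cells already known. That contrast is therefore given for them as values. Whether they passed the threshold in the fit of all genes is stated as description and not as a test of them. The difference between the cell lines was not used in choosing them and was tested. Maspin, the product of SERPINB5, is an intracellular serpin, and the study asked what its expression does in 2 lines of lung squamous cell carcinoma, LK-2 and RERF-LC-AI. RNA was measured by mRNA sequencing in 12 libraries, 3 in each of 4 groups. LK2-maspin and LC-AI-maspin are the 2 lines transduced with the lentiviral vector pLenti/maspin-ZsGreen, and LK2-ctrl and LC-AI-ctrl are the same lines with pLenti/ZsGreen. All 4 groups thus carry a lentiviral vector and the green fluorescent protein ZsGreen, were selected with blasticidin and are pools of surviving clones, LK-2 in RPMI1640 and RERF-LC-AI in Eagle's minimum essential medium. Nothing in the labels says that the 3 libraries of a group came from separate cultures, so that the p-values below measure the spread between these libraries, which may be technical.

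In the canonical pathway a ligand dimer binds a GPI-anchored GFRα co-receptor, and the pair recruits RET, whose kinase then activates MAPK and PI3K signaling. GDNF prefers GFRα1, neurturin GFRα2, artemin GFRα3 and persephin GFRα4, and NCAM1 can serve GDNF and GFRα1 as a signaling receptor without RET. The family is best known from the enteric nervous system, the kidney and sensory and motor neurons, and RET is altered by gene fusion in some lung adenocarcinomas.

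The 6 LK-2 libraries held 39802246 to 54941357 counts each and the 6 libraries of RERF-LC-AI 50143577 to 65454432, most of them from both reads of a pair. Maspin transcript followed the labels, with 44.8 to 47.5 CPM (the count scaled to a common library size) in LK2-maspin and 1.70 to 1.90 CPM in LK2-ctrl, and with 470.3 to 551 CPM in LC-AI-maspin and 0.154 to 0.291 CPM in LC-AI-ctrl. The 9 squamous markers summed to 442 to 495 CPM in LK2-maspin and 484 to 539.7 CPM in LK2-ctrl, most of it SOX2. KRT14 and KRT17 stayed at or below 0.0694 CPM in LK-2. SOX2 was lower in LK2-maspin than in LK2-ctrl without overlap, but KRT5, KRT6A and DSG3 were higher without overlap. They were at least 5.206, 2.244 and 5.154 CPM in LK2-maspin and at most 0.9484, 1.596 and 5.118 CPM in LK2-ctrl. TP63 and PKP1 overlapped. In LC-AI-ctrl the 9 squamous markers summed to 11.7 to 13.2 CPM, with PKP1 and DSG3 alone at 1 CPM or more throughout. In LC-AI-maspin they summed to 482 to 562 CPM, nearly all of it SERPINB5 itself. KRT5 and SOX2 were at most 0.101 and 0.669 CPM in RERF-LC-AI, whose VIM level was 1597 to 1838 CPM, against at most 0.874 CPM in LK-2 libraries. RERF-LC-AI thus lacked most of the defining markers of its labelled cell type, and LK-2 lacked several. TP63 was 0.616 to 1.56 CPM in LK-2 and 0.388 to 0.957 CPM in RERF-LC-AI. PKP1 was at most 0.516 CPM in LK-2 and 7.49 to 9.42 CPM in RERF-LC-AI. Of the 9 squamous markers, SERPINB5 included, 6 averaged 1 CPM or more in LK2-maspin, 5 in LK2-ctrl, 3 in LC-AI-maspin and 2 in LC-AI-ctrl. The 5 glial or Schwann cell markers summed to 2.28 to 3.71 CPM in any library, most of it GFAP, with SOX10 and S100B at most 0.253 and 0.207 CPM. The 8 neuroendocrine markers summed to 30.3 to 32.5 CPM in LK2-maspin and 34.2 to 38.2 CPM in LK2-ctrl, most of it INSM1 (23.4 to 31.9 CPM), and to 10.9 to 12.1 CPM in LC-AI-maspin and 10.6 to 12.4 CPM in LC-AI-ctrl, where SYP, DLL3 and CHGB led. Their part in the members' levels was not tested.

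GFRA1, the co-receptor of GDNF, was the most abundant member in RERF-LC-AI and was 2.36-fold lower there in maspin cells. The gene lies on the minus strand of chromosome 10 from 116056925 to 116276803 (GRCh38, GENCODE v44). A long non-coding RNA without a symbol shares 421 exonic bases with it on the opposite strand. Reads of that stretch cannot be told apart unless the counting used the strand. GFRA1 had 2746, 2954 and 2910 counts in the LC-AI-maspin libraries, against 5646, 6055 and 5970 counts in the LC-AI-ctrl libraries. After TMM scaling over all 12 libraries these were 56.8, 49.7 and 47.0 CPM in LC-AI-maspin, against 117, 116 and 129 CPM in LC-AI-ctrl. Every maspin library lay below every ctrl library, and the gap was many times the spread within either group. The log2 fold change of maspin over ctrl was -1.24 (SE 0.06), which leaves 42.3% of the ctrl level. Among the 1645 genes called lower in this line at an adjusted p under 0.05, GFRA1 ranked 42 by log2 fold change. Summed mesenchymal markers were 1828 to 2006 CPM in LC-AI-maspin and 1949 to 2146 CPM in LC-AI-ctrl. Within that list PDGFRB was 2.53 to 3.23 CPM in LC-AI-maspin and 6.42 to 10.8 CPM in LC-AI-ctrl. COL1A2 and ZEB1 were also lower without overlap, at most 17.65 and 55.11 CPM in LC-AI-maspin and at least 26.2 and 57.81 CPM in LC-AI-ctrl. VIM, COL1A1, COL3A1, FN1 and CDH2 overlapped between the groups. The part of the mesenchymal markers in the GFRA1 value was not tested. In bulk RNA, fewer cells with a transcript and less transcript per cell cannot be told apart.

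In LK-2 cells GFRA1 was a low transcript, with 59, 82 and 90 counts in LK2-maspin (1.02, 1.94 and 1.79 CPM) against 100, 109 and 72 counts in LK2-ctrl (1.98, 1.89 and 1.46 CPM). The libraries overlapped, and the log2 fold change of -0.17 was smaller than its SE of 0.25. Whether the maspin effect on GFRA1 differed between the lines was not tested, since the gene was chosen on these values.

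GFRA3, the artemin co-receptor (chromosome 5 from 138252380 to 138274621, minus strand, GRCh38), showed the reverse distribution between the lines. It had 543, 291 and 357 counts in LK2-maspin (9.39, 6.90 and 7.09 CPM) and 407, 425 and 251 counts in LK2-ctrl (8.04, 7.38 and 5.08 CPM). The groups overlapped, with a log2 fold change of 0.20 (SE 0.17). In RERF-LC-AI it was near the limit of detection, with 4, 4 and 16 counts in LC-AI-maspin and 0, 10 and 2 counts in LC-AI-ctrl. The library without a count allows up to 0.125 CPM (3 fragments of 2 counts each, counting error only). GFRA3 did not pass the filter on low counts in RERF-LC-AI, so that no maspin fold change is given there.

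GFRA2, the neurturin co-receptor (chromosome 8 from 21690398 to 21812357, minus strand, GRCh38), stayed below 1 CPM in every library. Its levels were 0.640, 0.711 and 0.298 CPM in LK2-maspin against 0.316, 0.555 and 0.567 CPM in LK2-ctrl, and 0.538, 0.825 and 0.420 CPM in LC-AI-maspin against 0.624, 0.731 and 0.863 CPM in LC-AI-ctrl. The libraries overlapped in both lines, and the log2 fold changes of 0.19 (SE 0.40) in LK-2 and, for RERF-LC-AI, -0.31 (SE 0.32) were within their errors.

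**Figure D1:**
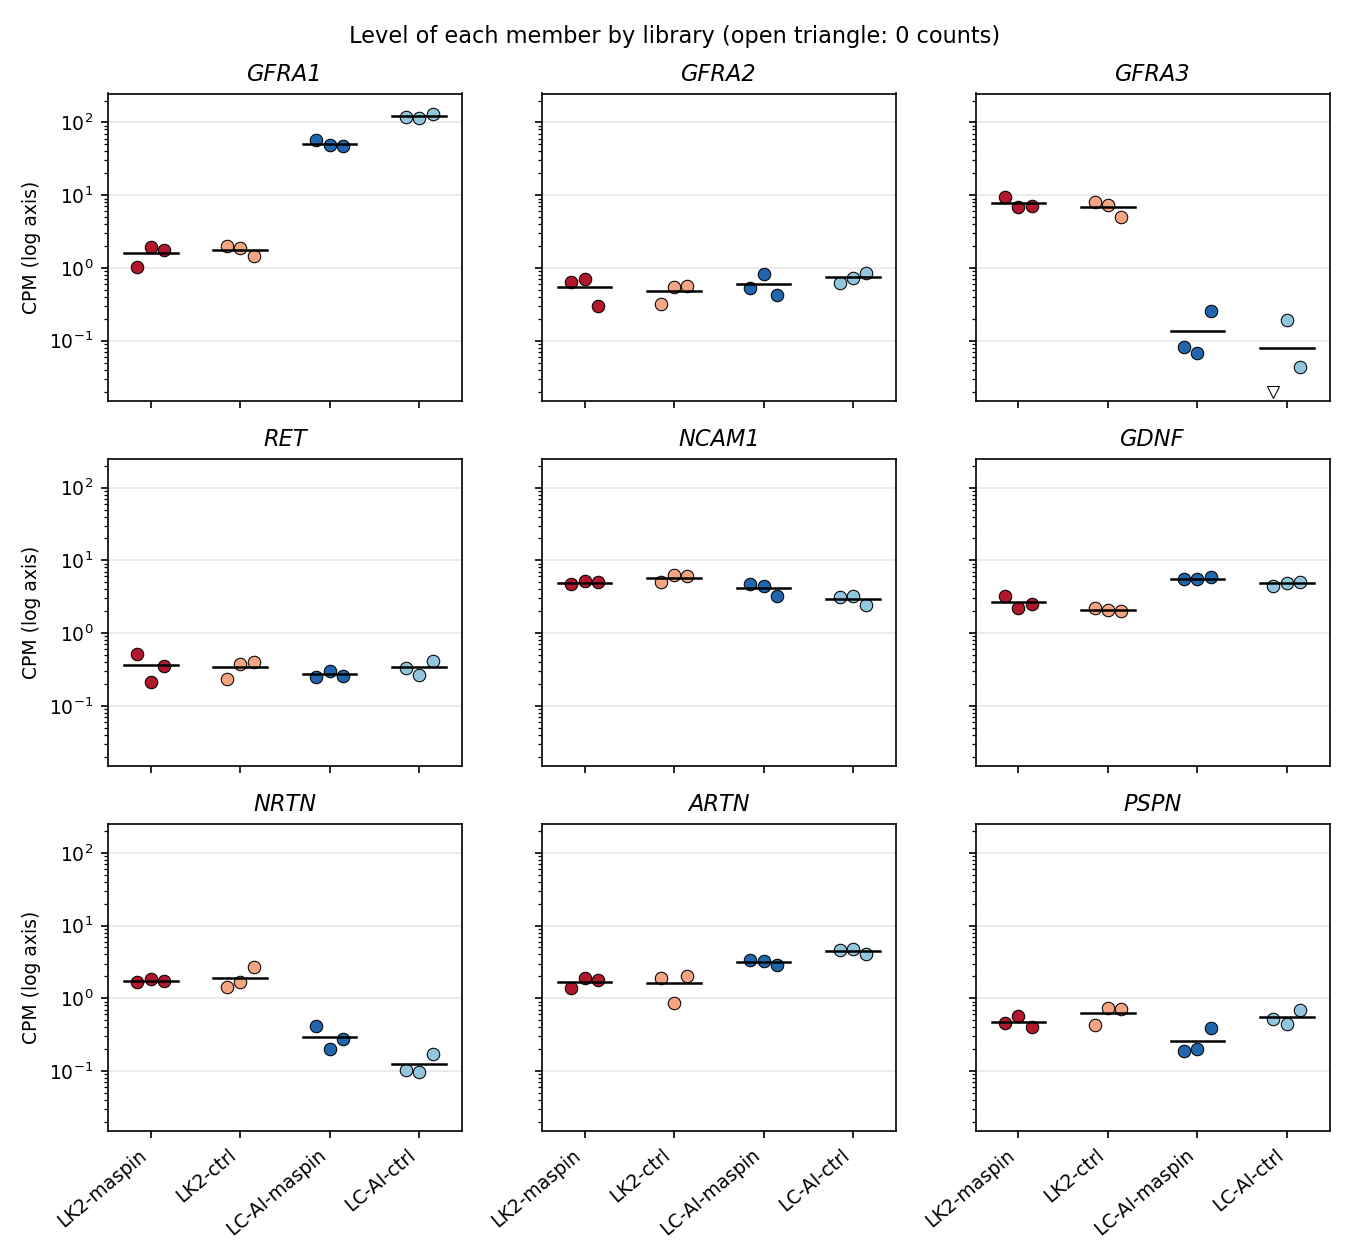
CPM of the 9 members in each library on a log axis, with LK2-maspin, LK2-ctrl, LC-AI-maspin and LC-AI-ctrl from left to right, 1 point per library, a line at the mean of 3, and an open triangle for a library with 0 counts. GFRA1 lies between 47.0 and 129 CPM in RERF-LC-AI and below 2 CPM in LK-2, GFRA3 is high in LK-2 alone, and RET stays at or below 0.519 CPM in all libraries.

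The lines thus differed in which co-receptor transcript they held, and this was tested between LK-2 and RERF-LC-AI. In ctrl cells GFRA1 was 67.8-fold lower in LK-2 than in RERF-LC-AI (log2 fold change -6.08, SE 0.14, adjusted p = 2.07e-18, edgeR), and GFRA3 was 81.3-fold higher (6.35, SE 0.42, adjusted p = 3.46e-11). In maspin cells the values were 33.0-fold lower for GFRA1 (-5.04, SE 0.15, adjusted p = 5.00e-17) and 54.5-fold higher for GFRA3 (5.77, SE 0.37, adjusted p = 2.39e-11). No library of one line reached into the range of the other for either gene. The size of the GFRA3 difference rests on few counts in RERF-LC-AI, with 8.18 in ctrl cells without LC-AI-ctrl replicate 2 and 6.66 in maspin cells without LC-AI-maspin replicate 3. GFRA3 did not pass the filter within RERF-LC-AI and entered this fit only through the LK-2 libraries. With so few counts in RERF-LC-AI it had to differ to be tested at all, so that its adjusted p adds nothing to its values. For GFRA2 no difference was detected in ctrl cells (-0.62, SE 0.37, adjusted p = 0.151) or in maspin cells (-0.12, SE 0.37, adjusted p = 0.800). Per kilobase of transcript, a scale on which genes can be set side by side, GFRA3 made up 90.7 to 95.2% of the co-receptor reads in LK2-maspin and 90.4 to 93.6% in LK2-ctrl. GFRA1 made up 96.0 to 97.7% in LC-AI-maspin and 98.1 to 99.0% in LC-AI-ctrl. These shares use 1 transcript length per gene, the MANE Select transcript. They cover GFRA1, GFRA2 and GFRA3 and leave out GFRA4, which averaged at most 0.0496 CPM in any group and was too low to be tested. Cell line, culture medium and the table in which each line was deposited cannot be told apart in these comparisons.

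The promoter windows of GFRA1, GFRA3, NRTN and RET are shown because the first 3 differ most between the lines and RET is low in both. Each window runs from 250 bases before to 50 bases after a transcription start in RefSeq (GRCh38.p14) and is printed 5′ to 3′ on the strand of the gene, with capitals for each GC box (GGGCGG on either strand).
GFRA1, chr10:116272426-116272725, minus strand: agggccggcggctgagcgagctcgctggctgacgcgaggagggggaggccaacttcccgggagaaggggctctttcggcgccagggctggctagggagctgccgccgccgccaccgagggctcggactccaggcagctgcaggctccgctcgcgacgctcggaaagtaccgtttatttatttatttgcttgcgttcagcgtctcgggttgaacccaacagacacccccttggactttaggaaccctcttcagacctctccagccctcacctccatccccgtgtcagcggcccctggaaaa
GFRA3, chr5:138274572-138274871, minus strand: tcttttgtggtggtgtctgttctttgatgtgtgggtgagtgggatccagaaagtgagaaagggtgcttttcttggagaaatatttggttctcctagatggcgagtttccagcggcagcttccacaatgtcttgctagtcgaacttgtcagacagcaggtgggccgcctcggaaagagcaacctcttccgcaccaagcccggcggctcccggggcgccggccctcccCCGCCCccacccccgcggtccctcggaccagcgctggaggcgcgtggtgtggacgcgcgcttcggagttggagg
NRTN, chr19:5804817-5805116, plus strand: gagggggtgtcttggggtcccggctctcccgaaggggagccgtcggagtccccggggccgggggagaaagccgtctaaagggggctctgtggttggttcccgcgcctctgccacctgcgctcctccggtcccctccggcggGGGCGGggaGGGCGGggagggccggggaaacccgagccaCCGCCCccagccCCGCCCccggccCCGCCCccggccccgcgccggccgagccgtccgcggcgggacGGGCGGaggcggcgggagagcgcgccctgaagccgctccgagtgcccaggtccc
RET, chr10:43076819-43077118, plus strand: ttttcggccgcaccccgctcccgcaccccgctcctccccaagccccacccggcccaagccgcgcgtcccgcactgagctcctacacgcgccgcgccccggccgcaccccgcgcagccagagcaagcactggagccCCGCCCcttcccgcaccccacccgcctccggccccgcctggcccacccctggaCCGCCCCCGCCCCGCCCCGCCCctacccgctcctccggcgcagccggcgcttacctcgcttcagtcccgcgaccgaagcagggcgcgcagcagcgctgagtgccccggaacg
GFRA1 has 4 listed starts, and the window shown is the one nearest to the start of its MANE Select transcript, 731 bases away. All 4 windows lie above the middle of the 35116 windows in GC content, with 64.3% in GFRA1, 61.3% in GFRA3, 80.0% in NRTN and 78.7% in RET, where the median was 58.7%. They hold 25, 22, 38 and 41 CpG dinucleotides, where the median was 14. The GC box, the letters bound by SP1, occurs 6 times in NRTN, 5 times in RET, once in GFRA3 and not in GFRA1, and 45.0% of all windows hold it. Of 6 further motifs searched on both strands (the CCAAT box, the TATA box as TATAAA, the E-box as CACGTG, the AP-1 site as TGANTCA, the CRE as TGACGTCA and an ETS site as CCGGAAGT) none matched in these windows, and between 1.85 and 34.6% of all windows hold each of them. A match is a description of letters and not of a bound site.

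RET, the signaling kinase of the family (chromosome 10 from 43077064 to 43130351, plus strand, GRCh38), had the lowest mean per transcript length of the 9 in LK2-maspin, LK2-ctrl and LC-AI-maspin, with the next member, GFRA2 or GFRA3, within the summed SDs of both. It had 30, 9 and 18 counts in LK2-maspin (0.519, 0.213 and 0.358 CPM) and 12, 22 and 20 counts in LK2-ctrl (0.237, 0.382 and 0.405 CPM). In RERF-LC-AI it had 12, 18 and 16 counts in LC-AI-maspin (0.248, 0.303 and 0.258 CPM) and 16, 14 and 19 counts in LC-AI-ctrl (0.333, 0.269 and 0.410 CPM). All 4 groups overlapped. Maspin over ctrl gave a log2 fold change of 0.11 (SE 0.44) in LK-2 and one of -0.31 (SE 0.45) for RERF-LC-AI. Between the lines, too, no difference was detectable at this depth, with 0.02 in ctrl cells (SE 0.42, adjusted p = 0.968, edgeR) and 0.44 in maspin cells (SE 0.42, adjusted p = 0.386). Set per kilobase of transcript, GFRA1 was at 5.59 and RET at 0.0481 CPM per kb in LC-AI-maspin, and GFRA1 at 13.2 and RET at 0.0600 CPM per kb in LC-AI-ctrl. In LK-2, GFRA3 was at 3.92 and RET at 0.0647 CPM per kb in LK2-maspin, and GFRA3 at 3.44 and RET at 0.0607 CPM per kb in LK2-ctrl.

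NCAM1, the neural cell adhesion molecule (chromosome 11 from 112961275 to 113278436, plus strand, GRCh38), was present in both lines at several CPM. It had 4.74, 4.41 and 3.23 CPM in LC-AI-maspin against 3.12, 3.21 and 2.44 CPM in LC-AI-ctrl. Every maspin library was above every ctrl library, by a narrow margin of 3.23 over 3.21 CPM, and the log2 fold change was 0.49 (SE 0.16). In LK-2 it had 4.74, 5.15 and 4.99 CPM in LK2-maspin against 5.10, 6.23 and 6.05 CPM in LK2-ctrl, which overlap, with a log2 fold change of -0.23 (SE 0.13). Between the lines NCAM1 was 1.98-fold higher in LK-2 in ctrl cells (0.98, SE 0.16, adjusted p = 1.56e-05, edgeR). In maspin cells the difference of 0.27 did not pass the test (SE 0.15, adjusted p = 0.145), but it did with upper-quartile factors (0.46, adjusted p = 0.0150) and with library size only (0.46, adjusted p = 0.0169). The antisense transcript NCAM1-AS1, which shares 613 exonic bases with NCAM1, averaged at most 0.0970 CPM in any group. TTC12-DT and a long non-coding RNA without a symbol, both on the opposite strand, share 187 and 202 exonic bases with NCAM1. The sources used here do not say whether the counting used the strand.

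Ordered by CPM per kb, GFRA3 led in LK2-maspin at 3.92 ± 0.698 and in LK2-ctrl at 3.44 ± 0.782 (SD, n = 3 each). ARTN, NRTN, NCAM1, PSPN and GDNF followed between 0.637 and 1.16 in LK2-maspin and between 0.499 and 1.25 in LK2-ctrl, and GFRA1, GFRA2 and RET were below 0.194. In RERF-LC-AI, GFRA1 led at 5.59 ± 0.554 in LC-AI-maspin and 13.2 ± 0.745 in LC-AI-ctrl, and ARTN came next at 2.21 ± 0.178 and then GDNF at 1.35 ± 0.0424 in LC-AI-maspin, and ARTN at 3.11 ± 0.241 and GDNF at 1.15 ± 0.0765 in LC-AI-ctrl (SD, n = 3 each). Each of these steps in RERF-LC-AI was larger than the summed SDs, which cover the spread between libraries alone. Those from ARTN to NRTN in LK-2 were not. The order uses the length of 1 transcript per gene, the MANE Select transcript. All exons together span 2657 against 1439 bases in ARTN, 4628 against 4171 in GDNF and 3911 against 701 in PSPN. The order of these 3 genes thus depends on the length used.

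**Figure D2:**
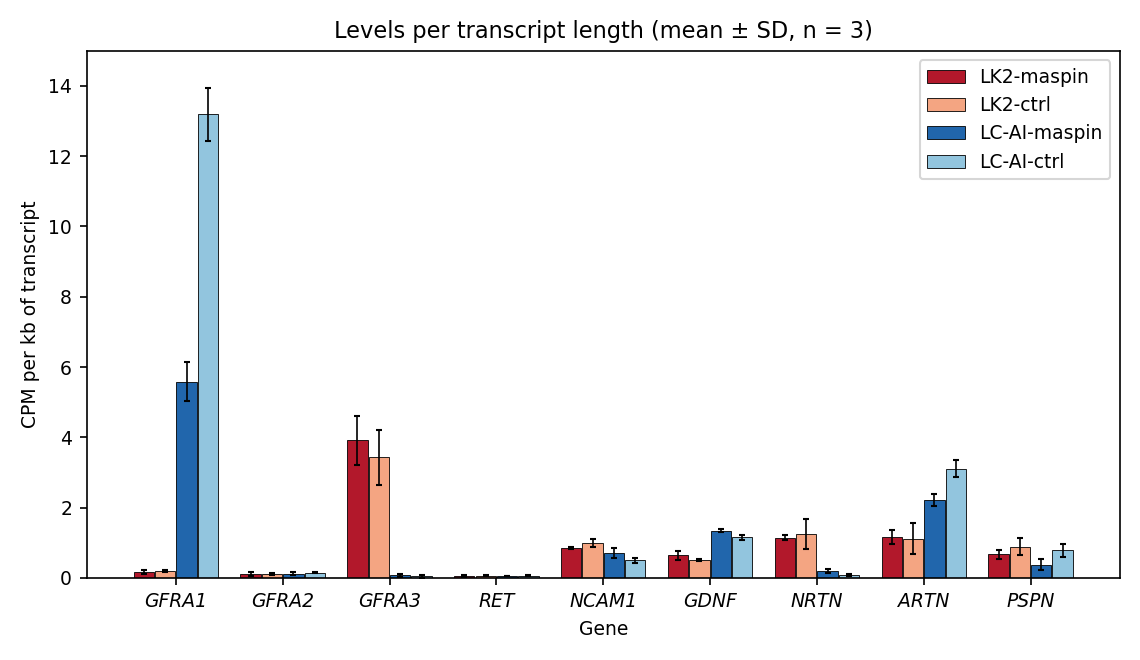
Mean level of each member in CPM per kb of its MANE Select transcript, with bars in the order LK2-maspin, LK2-ctrl, LC-AI-maspin and LC-AI-ctrl and error bars of 1 SD over 3 libraries. GFRA1 reaches 13.2 CPM per kb in LC-AI-ctrl and 5.59 in LC-AI-maspin, GFRA3 leads in LK-2, and RET stays at or below 0.0647 CPM per kb in all groups.

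Among the ligands, GDNF, the founding member (chromosome 5 from 37812677 to 37840041, minus strand, GRCh38), was somewhat higher in maspin than in ctrl libraries of both lines. It had 3.23, 2.23 and 2.50 CPM in LK2-maspin against 2.19, 2.07 and 1.98 CPM in LK2-ctrl, and 5.48, 5.54 and 5.81 CPM in LC-AI-maspin against 4.45, 4.90 and 5.07 CPM in LC-AI-ctrl. The libraries did not overlap in either line, although in LK-2 the nearest ones were 2.23 and 2.19 CPM. The log2 fold changes were 0.36 (SE 0.18) in LK-2 and, for RERF-LC-AI, 0.22 (SE 0.12), and neither passed the threshold used for all genes. GDNF-AS1, on the opposite strand with 681 shared exonic bases, averaged 0.480 ± 0.103 CPM in LK2-maspin and 0.304 ± 0.113 CPM in LK2-ctrl, and 0.564 ± 0.202 CPM in LC-AI-maspin and 0.294 ± 0.162 CPM in LC-AI-ctrl (SD, n = 3 each). Reads of this pair cannot be told apart unless the counting used the strand. GDNF was lower in LK-2 than in RERF-LC-AI, 2.31-fold in ctrl cells (-1.21, SE 0.15, adjusted p = 5.31e-07, edgeR) and 2.10-fold in maspin cells (-1.07, SE 0.15, adjusted p = 1.84e-06).

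ARTN, which encodes artemin (chromosome 1 from 43933320 to 43937240, plus strand, GRCh38), was lower in maspin cells of RERF-LC-AI. Its levels were 3.37, 3.28 and 2.89 CPM in LC-AI-maspin against 4.60, 4.73 and 4.08 CPM in LC-AI-ctrl, without overlap, and the log2 fold change was -0.49 (SE 0.14). In LK-2 they were 1.37, 1.87 and 1.79 CPM in LK2-maspin against 1.90, 0.868 and 2.02 CPM in LK2-ctrl, where a single ctrl library was low and the groups overlapped (0.07, SE 0.30). ARTN was lower in LK-2 than in RERF-LC-AI, 2.82-fold in ctrl cells (-1.50, SE 0.22, adjusted p = 6.71e-06, edgeR) and 1.91-fold in maspin cells (-0.93, SE 0.23, adjusted p = 0.00128). Thus the line with more artemin transcript had 0 to 16 counts a library of GFRA3, the co-receptor artemin prefers.

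NRTN, which encodes neurturin (chromosome 19 from 5805067 to 5828324, plus strand, GRCh38), was the ligand with the largest difference between the lines. It was 15.2-fold higher in LK-2 than in RERF-LC-AI in ctrl cells (3.93, SE 0.36, adjusted p = 5.66e-09, edgeR) and 5.94-fold higher in maspin cells (2.57, SE 0.31, adjusted p = 3.21e-07). In LK-2 it had 96, 78 and 87 counts in LK2-maspin (1.66, 1.85 and 1.73 CPM) and 72, 95 and 132 counts in LK2-ctrl (1.42, 1.65 and 2.67 CPM), which overlap (-0.13, SE 0.24). In RERF-LC-AI it had 20, 12 and 17 counts in LC-AI-maspin (0.414, 0.202 and 0.275 CPM) and 5, 5 and 8 counts in LC-AI-ctrl (0.104, 0.0962 and 0.173 CPM). The groups did not overlap, and the log2 fold change of 1.24 has an SE of 0.54. NRTN passed the filter in this line only through the maspin libraries, so that a gene this low had to differ to be fitted at all. The ctrl comparison between the lines shares this limit, since the LC-AI-ctrl counts were below the 10 that the filter asks for.

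PSPN, which encodes persephin (chromosome 19 from 6375148 to 6379058, minus strand, GRCh38), was below 1 CPM throughout. Its levels were 0.186, 0.202 and 0.388 CPM in LC-AI-maspin against 0.520, 0.442 and 0.690 CPM in LC-AI-ctrl, from 9 to 32 counts a library. These do not overlap, and the log2 fold change was -1.06 (SE 0.42). In LK-2 it had 0.450, 0.569 and 0.397 CPM in LK2-maspin against 0.435, 0.729 and 0.708 CPM in LK2-ctrl, which overlap (-0.41, SE 0.34). The gene shares 103 exonic bases with ALKBH7 on the opposite strand, which is far higher, at 17.4 ± 0.901 CPM in LK2-maspin, 16.3 ± 1.41 CPM in LK2-ctrl, 20.1 ± 0.353 CPM in LC-AI-maspin and 21.1 ± 0.760 CPM in LC-AI-ctrl (SD, n = 3 each). Between the lines no difference in PSPN passed the test in ctrl cells (0.19, SE 0.36, adjusted p = 0.671, edgeR) or in maspin cells (0.84, SE 0.39, adjusted p = 0.0713). In maspin cells it passed with the likelihood ratio test (adjusted p = 0.0480), upper-quartile factors (adjusted p = 0.0276), library size only (adjusted p = 0.0282) and without LC-AI-maspin replicate 3 (adjusted p = 0.0211).

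**Figure D3:**
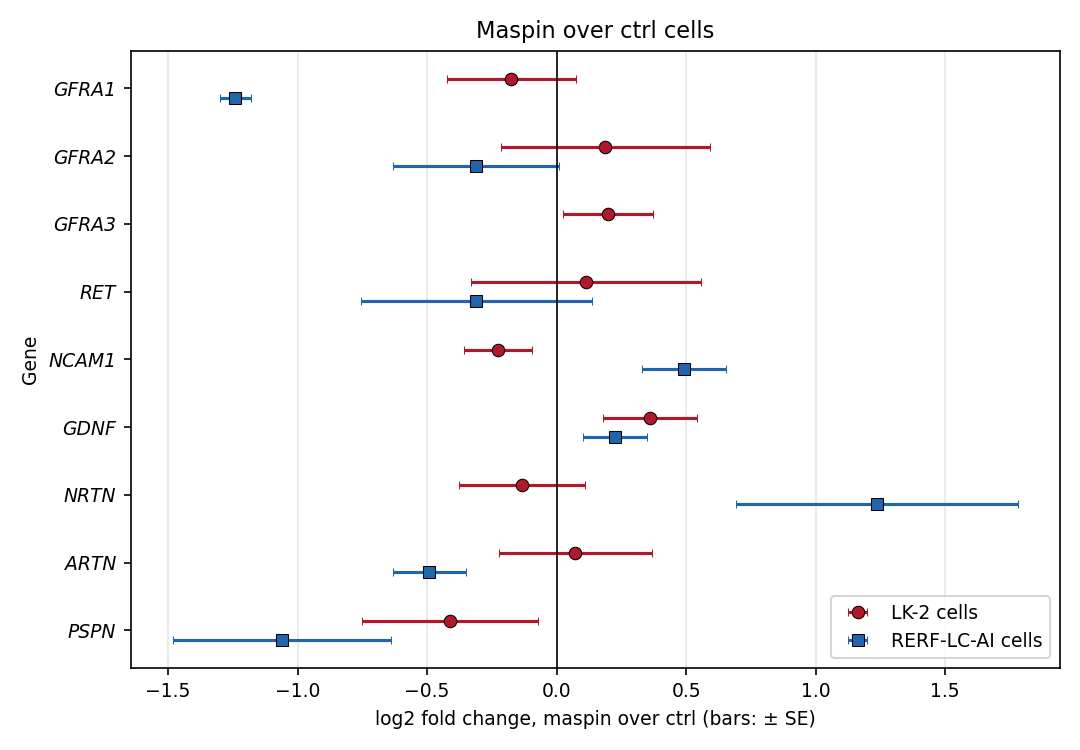
Maspin over ctrl cells, as log2 fold change, for each member in LK-2 (circles) and RERF-LC-AI (squares), with bars of 1 SE. GFRA1 in RERF-LC-AI stands at -1.24 with an SE of 0.06, the wide bars belong to RET, NRTN, PSPN and GFRA2, and GFRA3 has no value in RERF-LC-AI.

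Over the family, none of the 9 members passed the threshold in LK-2, where 0.533% of all genes did (0.373% higher and 0.160% lower), and none had an unadjusted p under 0.05 with edgeR's quasi-likelihood test. The likelihood ratio test and DESeq2 also called none of them, but DESeq2 gave no adjusted p for GFRA2, RET and PSPN. With the replicate number as a block, none was called either, where 4.53% of all genes were (2.64% higher and 1.89% lower). GDNF alone did not overlap between the groups, on the higher side, against 11.6% of all genes (6.10% higher and 5.45% lower). In RERF-LC-AI, NCAM1 was past the threshold and higher and GFRA1 and ARTN were past it and lower, of 8 members that passed the filter, where 10.5% of all genes were past it (4.01% higher and 6.53% lower). The same 3 members were past it with the replicate block, where 16.2% of all genes were (6.34% higher and 9.85% lower). Without overlap were GDNF, NRTN and NCAM1 on the higher and GFRA1, ARTN and PSPN on the lower side, against 25.0% of all genes (11.8% higher and 13.3% lower). Nothing is read from these counts, as the members were chosen on this contrast. The same holds for the alternative fits that follow, which reuse the same values and lend no support of their own. GFRA1 was past the threshold in all alternative fits of RERF-LC-AI that were run, with a log2 fold change between -1.32 and -1.18 when single libraries were left out. ARTN was no longer past it without LC-AI-maspin replicate 3 (-0.43), LC-AI-ctrl replicate 1 (-0.47) or LC-AI-ctrl replicate 2 (-0.45), and NCAM1 without LC-AI-maspin replicate 1 (0.38), LC-AI-maspin replicate 2 (0.44) or LC-AI-ctrl replicate 3 (0.38) or with at least 10 counts required in every library. Both were also lost with all 12 libraries in 1 fit.

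Between the lines, 3 members were higher in LK-2 ctrl cells (GFRA3, NRTN and NCAM1), 3 were lower (GFRA1, ARTN and GDNF) and 3 did not pass the test, where 61.9% of all genes passed (31.4% higher and 30.5% lower). In maspin cells 2 were higher (GFRA3 and NRTN), 3 lower (GFRA1, GDNF and ARTN) and 4 did not pass, where 59.8% of all genes passed (29.2% higher and 30.6% lower). The share of members that differed was thus close to that of all genes, and nothing is read from it. Among the 9, GFRA1 and GFRA3 had the largest differences. GFRA3 was in this fit only through its LK-2 libraries, so that its calls were largely set in advance. The NRTN call in ctrl cells shares this limit, as its LC-AI-ctrl counts were below the filter. Neither gene passed when at least 10 counts were required in every library. The median over all genes was 0.12 in ctrl and 0.06 in maspin cells with TMM scaling, and 0.34 and 0.26 with library size only. The directions of the 6 and 5 members that passed were the same under every scaling.

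**Figure D4:**
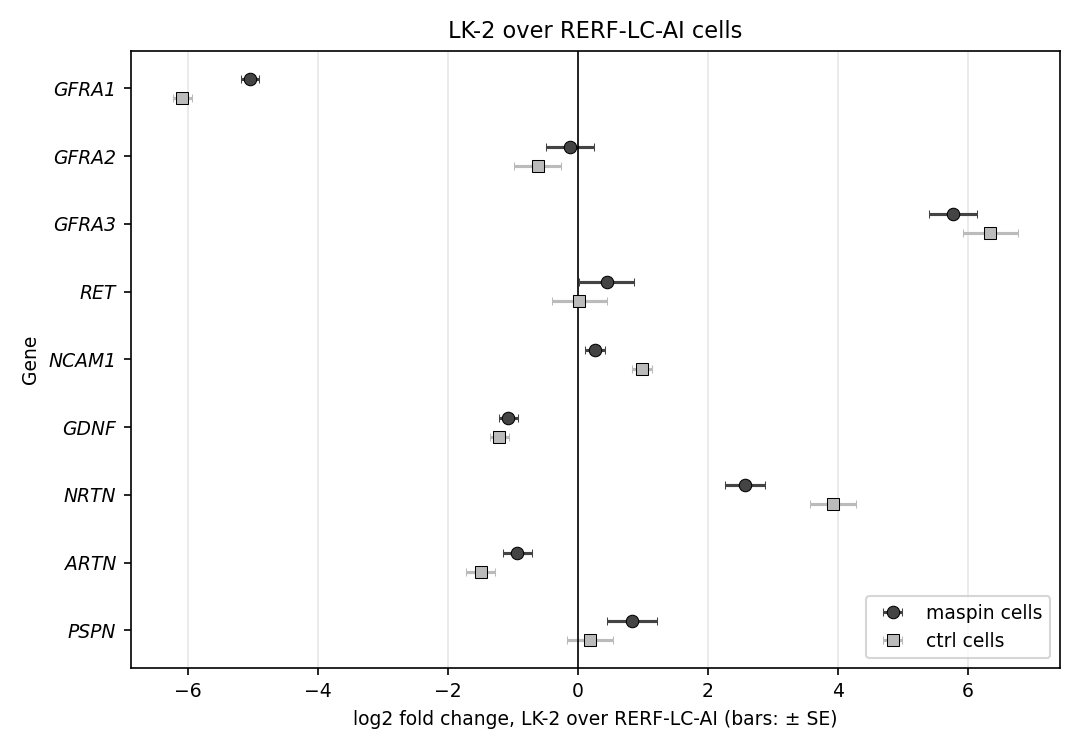
Log2 fold change of LK-2 over RERF-LC-AI for each member in maspin cells (circles) and ctrl cells (squares), with bars of 1 SE. GFRA1 lies at -5.04 and -6.08 and GFRA3 at 5.77 and 6.35, far beyond the other members except NRTN at 2.57 and 3.93.

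Other genes of the pathway were followed through 5 lists with 62 genes in all. In LK-2 no gene of any list passed the threshold between maspin and ctrl cells without the replicate block, where 0.533% of all genes did. With the block 7 passed, where 4.53% of all genes did. Among the 7 were LRIG1 (log2 fold change -0.23, adjusted p = 1.44e-05, edgeR) and the receptor SORL1 (-0.21, adjusted p = 7.01e-05). The others were the adaptors DOK5 (-1.76, adjusted p = 0.0257), SHC1 (-0.16, adjusted p = 0.0306) and IRS1 (0.42, adjusted p = 0.0225), the secreted WNT11 (-0.31, adjusted p = 0.0147) and the spectrin SPTBN1 (0.15, adjusted p = 0.00131). Without the block the adjusted p of the 7 lay between 0.305 and 0.955. In RERF-LC-AI the ETS factors ETV4 and ETV5, induced by RET signaling in the mouse kidney, rose in maspin cells. ETV4 averaged 37.5 ± 0.722 CPM in LC-AI-maspin and 25.9 ± 1.17 CPM in LC-AI-ctrl (SD, n = 3 each), so that it rose by 0.53 on the log2 scale (SE 0.06, adjusted p = 3.46e-07, edgeR). ETV5 averaged 157 ± 6.36 CPM in LC-AI-maspin and 114 ± 6.52 CPM in LC-AI-ctrl (SD, n = 3 each), and it rose by 0.46 (SE 0.05, adjusted p = 1.60e-07). Of the 10 tested genes of that list of targets and feedback regulators, these 2 rose, the matrix protease MMP14 fell (-0.34, SE 0.06, adjusted p = 1.39e-04) and 7 did not pass. Among those 7 were the feedback inhibitors SPRY2 (0.04, adjusted p = 0.821), SPRY4 (0.07, adjusted p = 0.650) and DUSP6 (0.16, adjusted p = 0.316), so that the list went both ways. Its median was 0.05, against 0.01 over all genes, of which 4.01% were called higher and 6.53% lower.

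Of 22 RET adaptors and effectors tested in RERF-LC-AI, 2 rose, 4 fell and 16 did not pass, with a median of -0.01. Of all genes, 10.5% passed (4.01% higher and 6.53% lower), and 16.2% did with the replicate block (6.34% higher and 9.85% lower). With the block 3 of the 22 were higher and 6 lower. The added ones were the adaptor IRS2 (0.15, adjusted p = 0.0360, edgeR), the adaptor FRS2 (-0.20, adjusted p = 0.00936) and the phosphatase PTPN11 (-0.09, adjusted p = 0.0318). The insulin receptor substrate IRS1, an adaptor, fell to 40.9 ± 2.10 CPM in LC-AI-maspin, against 63.4 ± 3.26 CPM in LC-AI-ctrl (SD, n = 3 each, log2 fold change -0.63, SE 0.06, adjusted p = 4.03e-09). The ubiquitin ligases CBL and CBLB, which act on activated receptor kinases, went apart, with -0.26 (SE 0.05, adjusted p = 8.73e-04) and 0.42 (SE 0.10, adjusted p = 0.00333). The adaptor GRB10 rose slightly (0.16, SE 0.05, adjusted p = 0.0224), and the adaptors GRB2 (-0.16, SE 0.05, adjusted p = 0.0235) and GAB2 (-0.27, SE 0.08, adjusted p = 0.0285), named after their values were seen, fell slightly. The GRB10 call was lost with all 12 libraries in 1 fit (adjusted p = 0.115) and without LC-AI-maspin replicate 2, LC-AI-maspin replicate 3 or LC-AI-ctrl replicate 3 (adjusted p = 0.0607, 0.0733 and 0.148). The GRB2 call was lost with all 12 libraries in 1 fit (adjusted p = 0.148) and without LC-AI-maspin replicate 1 or 3 or LC-AI-ctrl replicate 2 or 3 (adjusted p between 0.0838 and 0.142). The GAB2 call was lost with upper-quartile factors (adjusted p = 0.0624), with library size only (adjusted p = 0.107), with all 12 libraries in 1 fit (adjusted p = 0.300) and without LC-AI-maspin replicate 2 or 3 or LC-AI-ctrl replicate 1 or 3 (adjusted p = 0.135, 0.204, 0.0849 and 0.114).

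Of 7 other receptors and ligands tested in RERF-LC-AI, 1 rose and 6 did not pass, where 4.01% of all genes were called higher and 6.53% lower. GDF15, a distant relative of GDNF in the TGF-β superfamily that signals through GFRAL and RET, averaged 16.3 ± 1.13 CPM in LC-AI-maspin and 7.99 ± 3.49 CPM in LC-AI-ctrl (SD, n = 3 each), and it rose by 1.03 on the log2 scale (SE 0.16, adjusted p = 2.45e-05). Its receptor GFRAL was low and did not pass, at 0.312 ± 0.0515 CPM in LC-AI-maspin and 0.308 ± 0.155 CPM in LC-AI-ctrl (SD, n = 3 each). In LK-2 GDF15 was itself too low to be tested, at 0.352 ± 0.359 CPM in LK2-maspin and 0.137 ± 0.0846 CPM in LK2-ctrl (SD, n = 3 each).

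Of 8 genes for polysialylation and partners of NCAM1, 2 fell in RERF-LC-AI and 6 did not pass. Of all genes, 6.53% were called lower there and 4.01% higher. The focal adhesion kinase PTK2 fell by 0.28 on the log2 scale (SE 0.05, adjusted p = 1.16e-04), and the spectrin SPTBN1 had -0.14 (SE 0.04, adjusted p = 0.0425), which was lost with RLE size factors (adjusted p = 0.0511), with all 12 libraries in 1 fit (adjusted p = 0.144) and without any single library except LC-AI-maspin replicate 2. Of the transcription factors of cells that express RET, 8 were tested in LK-2, 6 were tested in RERF-LC-AI, and none passed in either line, with or without the block.

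**Figure D5:**
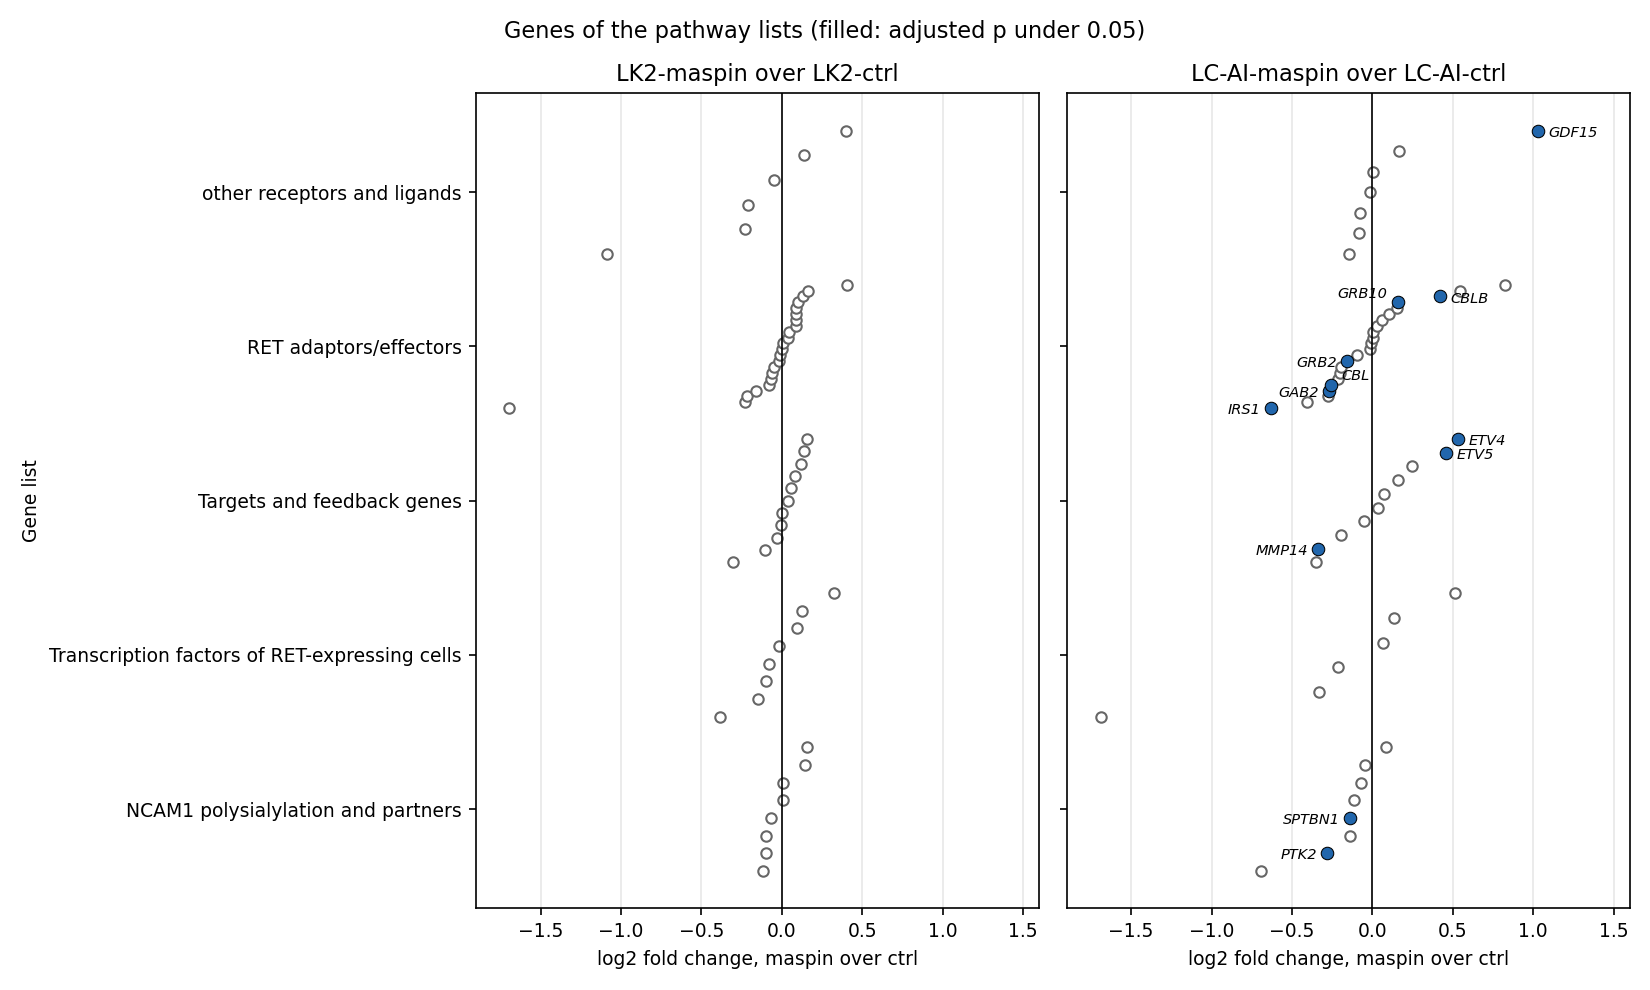
Maspin over ctrl cells, as log2 fold change, for the genes of 5 pathway lists, 1 point per tested gene, with LK-2 on the left and RERF-LC-AI on the right, with filled points at an adjusted p under 0.05 without the replicate block. No point is filled in LK-2, and the filled points of RERF-LC-AI lie on both sides of 0, from IRS1 at -0.63 to GDF15 at 1.03.

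Between the lines the targets and feedback genes were mostly higher in LK-2, with 8 higher, 2 lower and 1 not past the test in ctrl cells and 9 higher and 2 lower in maspin cells. Their median was 1.34 in ctrl and 1.41 in maspin cells, against 0.12 and 0.06 over all genes. Of all genes, 31.4 and 29.2% were called higher and 30.5 and 30.6% lower. CXCR4, counted as higher, averaged 0.118 CPM in LC-AI-maspin and 0.0400 CPM in LC-AI-ctrl and did not pass the filter within RERF-LC-AI. It entered this fit only through the LK-2 libraries and had to differ to be tested at all. ETV4 averaged 134 ± 3.76 CPM in LK2-maspin and 37.5 ± 0.722 CPM in LC-AI-maspin, and 144 ± 1.17 CPM in LK2-ctrl and 25.9 ± 1.17 CPM in LC-AI-ctrl (SD, n = 3 each). On the log2 scale it was higher in LK-2 ctrl cells by 2.47 (SE 0.06, adjusted p = 3.03e-18, edgeR). MET, the hepatocyte growth factor receptor, and MMP14 were the 2 genes lower in LK-2 in both comparisons. RET itself was at most 0.519 CPM in any library, and the part of RET signaling in these differences was not tested.

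The 5 genes whose pattern was most like that of GFRA1 were PHPT1, FNBP1, RPS6KA1, SIAH1 and SERTAD4. Likeness was Pearson's r of log2 CPM over the 12 libraries, centred on the mean of each line, among 15568 genes with at least 1 CPM in both lines, and r was 0.981, 0.977, 0.962, 0.961 and 0.956. Since GFRA1 varied mainly between maspin and ctrl cells of RERF-LC-AI, r mostly follows that contrast. PHPT1, a phosphohistidine phosphatase, averaged 49.7 ± 1.51 CPM in LC-AI-maspin and 60.6 ± 1.27 CPM in LC-AI-ctrl, and FNBP1, a membrane-bending F-BAR protein, 80.0 ± 2.65 CPM in LC-AI-maspin and 109 ± 3.95 CPM in LC-AI-ctrl (SD, n = 3 each). Their log2 fold changes were -0.28 and -0.44, that of the ribosomal S6 kinase RPS6KA1 was -0.44, that of the ubiquitin ligase SIAH1 -0.21 and that of SERTAD4 -0.65, so that GFRA1 with -1.24 changed most of the 6.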

How the data were processed

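Poly(A) RNA of the 4 groups was sequenced on a NovaSeq system. Per the labels, reads were trimmed (Trimmomatic 0.39), aligned to GRCh38.p13 (BWA 0.7.17) and handled with SAMtools, version 1.12 for LK-2 and 1.10 for RERF-LC-AI. Each line has its own deposited table of raw counts of mapped reads per gene. The sources used here do not name the tool that counted them. The authors' signal columns, which hold the counts after scaling to the library total or after TMM (edgeR 3.16.5), were not used. Of each table, 646 lines without a symbol (0.292 to 0.416% of the counts) were left out. Among counts from 1 to 9, 23.7 to 25.9% were odd, so that most fragments were counted as a pair. Libraries of a group differed by more than counting noise (chi-square per degree of freedom 4.70 to 26.5).

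All named genes were tested on their counts with edgeR 4.0.16 (R 4.3.3) by the quasi-likelihood F test after TMM scaling. Low genes were removed by the default filter, which asks for a count of 10 and a total of 15, and p-values were adjusted by Benjamini and Hochberg with a threshold of 0.05. Maspin and ctrl cells were compared within a line, and LK-2 and RERF-LC-AI in 1 fit of all 12 libraries. The SE is the log2 fold change over the square root of F. CPM use TMM factors over all 12 libraries, and lengths and gene positions are from GENCODE v44. Promoter windows from RefSeq (GRCh38.p14) were listed for 7 of the 9 members. The fits were tested on simulated data. The labels number the libraries of each group without saying what a number marks. Deviations from the group mean of equally numbered maspin and ctrl libraries correlated with 0.751, 0.118 and 0.756 in LK-2 and 0.362, 0.390 and 0.202 in RERF-LC-AI, over genes with a mean log2 CPM over 3. Over all genes tested they correlated with 0.153, 0.0147 and 0.164 in LK-2 and 0.0438, 0.0535 and 0.00175 in RERF-LC-AI. On the better measured genes the numbers were taken to pair the libraries of a line, although replicate 2 of LK2-ctrl was closest to replicate 1 of LK2-maspin (0.182), and the fit with the number as a block is given where it changes a call. Alternatives were the likelihood ratio test, DESeq2 1.42.0, other scalings and filters, a replicate block, another set of libraries in the fit and leaving out each library. Python 3.11.15, pandas 2.3.3 and matplotlib 3.10.9 drew the tables and plots. Members, lists and tests were chosen with earlier results of these data known. Named beside the 9 members were up to 4 genes of each list past the threshold with the smallest adjusted p in each line, overlapping genes and the 5 genes most like the member with the smallest adjusted p, GFRA1.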

Additional observations from a re-analysis of the deposited data

How the results depend on the processing

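Between LK-2 and RERF-LC-AI, the members called in ctrl cells numbered 6, or 4 when at least 10 counts were required in every library, a filter that GFRA3 and NRTN did not pass. In maspin cells they numbered 5, or 3 under that filter, 5 to 7 in the other alternatives, and 5 or 6 when single libraries were left out. In RERF-LC-AI 3 members were past the threshold between maspin and ctrl cells, 2 without any single library and 1, GFRA1, with all 12 libraries in 1 fit. None was past it in LK-2 in any alternative. RET between the lines in ctrl cells had no stable direction, with -0.0175 under DESeq2 and -0.0174 under RLE size factors and -0.14 to 0.22 without single libraries. Nor had GFRA2 in maspin cells, with 0.0782 under upper-quartile factors, 0.0815 with library size only and -0.33 to 0.22 without single libraries. The cause was not tested.

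The backgrounds moved more. In LK-2 cells 140 genes were called, 251 when 1 fit held all 12 libraries, 280 by DESeq2, 314 by the likelihood ratio test and 50 (without LK2-ctrl replicate 2) to 199 without single libraries. In RERF-LC-AI cells 2655 were called, 1163 with all 12 libraries in 1 fit and 1764 (without LC-AI-maspin replicate 3) to 2594 without single libraries. Their split was 1010 higher and 1645 lower, 1305 to 1388 under upper-quartile factors and 1408 to 1287 by library size only. Between the lines it was 8824 higher and 8583 lower in ctrl cells, 11463 to 7056 under upper-quartile factors and 11396 to 7053 by library size only. In maspin cells it was 8211 higher and 8603 lower, 10331 to 7242 under upper-quartile factors and 10297 to 7214 by library size only.

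With the replicate number as a block, 1190 genes were called in LK-2 cells, 4081 were called in RERF-LC-AI, and no call of a member changed. In the pathway lists the block added 7 calls for LK-2 and 3 for RERF-LC-AI, given with them, and changed no other call there. Counts of RET, GFRA2, PSPN and, in RERF-LC-AI, GFRA3 and NRTN were low (0 to 49 a library), and changes in them could go unseen at this depth. Maspin over ctrl log2 fold changes beyond the SE also did not pass in RERF-LC-AI, for NRTN (1.24, SE 0.54), PSPN (-1.06, SE 0.42) and GDNF (0.225, SE 0.123).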
